A study of Mus musculus with 6 samples.

Results

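Ephrins and their Eph receptors were examined in adult hepatocytes with and without forced expression of Sox4. The genes were a given list of 10 symbols, found by name among the 53599 genes of the count table: the ephrin-A genes Efna1, Efna2, Efna3, Efna4 and Efna5, the ephrin-B genes Efnb1 and Efnb2, and the receptors Epha1, Epha2 and Ephb4. The mouse has 12 further genes of these families, which were counted alongside. The 10 genes were chosen by their counts in the same Sox4 and control libraries, so the differences between groups are described for them and are not offered as tests.

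RNA came from the livers of 6 mice, with 1 library per animal, at day 4 after they received AAV8, an adeno-associated virus used to bring genes into the liver. In the Sox4 group (n = 3) the vector was AAV8-TBG-HA-Sox4-P2A-Cre, which encodes HA-tagged mouse Sox4 and Cre recombinase, and the labels give the genotype as Sox4. In the empty vector group (EV, n = 3) it was AAV8-TBG-Cre, which encodes Cre and no Sox4, and the labels give the genotype as WT. Both groups therefore received Cre, and the TBG promoter restricts Cre and Sox4 to hepatocytes. The study's methods describe an empty vector that also carries a U6-sgRNA backbone, so the vectors differed by more than Sox4. The dose of the empty vector was not stated for the RNA-Seq mice. The study's methods describe male Rosa-LSL-Cas9-EGFP mice on a C57BL/6J background, aged 4 to 8 weeks at injection, in which Cre switches on Cas9 and EGFP, so Cas9 and EGFP were also shared by the groups. Hepatocytes were freed with liberase and enriched on Percoll, which leaves some other liver cells in the preparation.

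Eph receptors are receptor tyrosine kinases that are switched on by ephrins on the surface of a touching cell. Ephrin-A proteins are held in the membrane by a lipid anchor and bind mainly EphA receptors, whereas ephrin-B proteins span the membrane and bind mainly EphB receptors. Signals pass into the cell that carries the receptor (forward signaling) and also into the cell that carries the ephrin (reverse signaling), and together they govern cell repulsion, adhesion, boundary formation and the shape of epithelial and vascular tubes. Epha1 and Epha2 are typical of epithelia, and Ephb4 with its ligand Efnb2 is best known from veins and arteries.

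Efna1, Efna3 and Efna4 lie side by side on chromosome 3 and moved in opposite directions, as described below. The stretches of DNA just upstream of their starts are shown for this reason, together with that of Efna2, an ephrin-A gene on chromosome 10 that stayed at the limit of detection. Each is the 250 bases before the start of the gene as given by RefSeq on GRCm38.p6, read 5′ to 3′ on the strand of the gene, and capitals mark ACAAAG or its reverse complement, a core sequence bound by SOX factors. For Efna1 and Efna3 RefSeq gives more than 1 start, and the outermost is shown.
Efna1, chr3:89280952-89281201, minus strand: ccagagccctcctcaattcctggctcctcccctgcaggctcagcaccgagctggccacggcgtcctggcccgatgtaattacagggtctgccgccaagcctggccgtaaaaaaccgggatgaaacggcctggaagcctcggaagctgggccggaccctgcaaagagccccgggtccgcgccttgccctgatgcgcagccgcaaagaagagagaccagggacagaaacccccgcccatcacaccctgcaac
Efna3, chr3:89322940-89323189, minus strand: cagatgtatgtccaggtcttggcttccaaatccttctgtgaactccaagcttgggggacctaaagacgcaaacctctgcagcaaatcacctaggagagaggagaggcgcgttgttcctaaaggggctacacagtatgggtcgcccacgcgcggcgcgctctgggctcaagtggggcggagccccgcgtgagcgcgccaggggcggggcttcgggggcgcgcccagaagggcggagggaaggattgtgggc
Efna4, chr3:89338029-89338278, minus strand: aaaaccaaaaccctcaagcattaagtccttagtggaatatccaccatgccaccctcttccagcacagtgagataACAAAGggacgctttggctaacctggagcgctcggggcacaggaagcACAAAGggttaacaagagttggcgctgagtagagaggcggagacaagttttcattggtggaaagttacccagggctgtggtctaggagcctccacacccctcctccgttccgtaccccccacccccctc
Efna2, chr10:80179232-80179481, plus strand: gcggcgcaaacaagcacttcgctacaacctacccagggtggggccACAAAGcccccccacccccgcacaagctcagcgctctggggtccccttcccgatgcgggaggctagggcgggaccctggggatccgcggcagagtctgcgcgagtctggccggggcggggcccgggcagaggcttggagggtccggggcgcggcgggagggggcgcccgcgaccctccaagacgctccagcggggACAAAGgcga
The Efna4 window held ACAAAG 2 times, beginning 176 and 129 bases before the start, and the Efna2 window also held it 2 times. A match to ACAAAG on either strand was present in 16.5% of the 32851 windows of all genes, and 2 or more in 1.74%. No other window of the 10 genes held it, and none of their 12 windows held the related core ACAATG, which was present in 10.7% of all windows. Neither the HNF4A site CAAAGTCCA (0.384% of all windows) nor the AP-1 site TGANTCA (6.75%) was found in these windows. Both are uncommon over all genes and only these exact letters were searched, so their absence from 12 windows says little. The TEAD core GGAATG, found in 12.6% of all windows, was present 2 times before Epha2 and 1 time each before Epha1 and Efnb2. General promoter elements were searched as well. The GC box GGGCGG, found in 32.7% of all windows, was present in every window of the list except those of Efna4 and Efnb1, the CCAAT box (33.8%) in those of Efna4, Ephb4, Efnb2 and Efnb1, and the TATA box TATAAA (12.4%) in that of Efnb2 alone. Both strands were read for each motif, and ACAAAG shares letters with the start of CAAAGTCCA and with ACAATG. The Efna4 window was the poorest of the 12 in CG dinucleotides, with 7 against 9 to 32 in the others and a median of 6 over all genes. These matches describe the sequence only, since binding was not measured here.

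The 6 libraries held between 15090629 and 16964860 counts. Levels are given as counts per 1000000 counts (CPM) on library sizes scaled by the trimmed mean of M-values (TMM), and 3 counts, taken as the floor, correspond to 0.218 to 0.231 CPM in EV against 0.150 to 0.153 CPM in Sox4. Such floors cover counting error only. Sox4 itself had 2, 0 and 3 counts in the libraries EV 1 to 3 and 21697, 15097 and 11816 in Sox4 1 to 3, at least 3631-fold more by CPM. Hepatocyte markers were abundant in every library, with a summed level of 119837 to 145125 CPM in EV against 85622 to 99948 CPM in Sox4. With the TMM scale 52.7% of the 6990 changed genes were higher in Sox4, whereas with library size alone 79.9% of 8094 were, and the median log2 fold change of all genes was 0.04 and 0.51 on these scales. All fold changes that follow are those on the TMM scale.

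Of the 10 genes, 9 passed the filter on low counts, and only Efna2 did not. The edgeR quasi-likelihood fit over all 12691 genes placed 5 of the 9 higher in Sox4 (Efna4, Efna5, Efnb2, Epha2 and Ephb4) and 2 lower (Efna1 and Efna3), at a Benjamini-Hochberg adjusted p under 0.05. Over all genes tested 55.1% were placed in either direction, 29.0% higher and 26.0% lower. The groups did not overlap in these 7 genes, where 63.0% of all genes tested did not overlap. The median log2 fold change of the 9 genes was 1.23, also with Efna4 at its lower bound, against 0.04 over all genes tested. Since the list was made from this contrast, nothing is read from these counts. In bulk samples such as these, fewer cells of a type and less RNA per cell cannot be told apart.

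**Figure D1:**
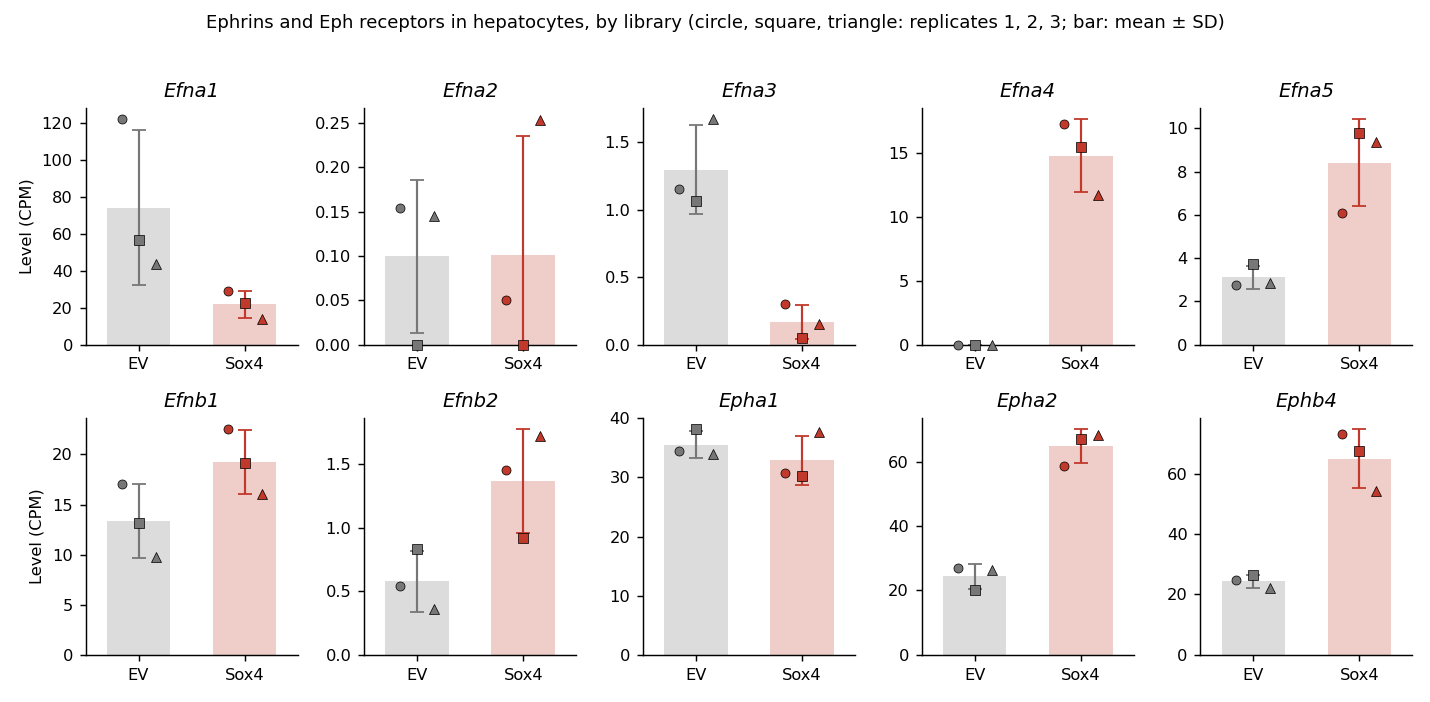
Level of each of the 10 genes in CPM (vertical axis, from 0, a separate scale for each gene) in EV and Sox4 hepatocytes. Points are libraries, with replicate 1 as a circle, 2 as a square and 3 as a triangle, and bars with whiskers give the mean ± SD (n = 3). Efna4 had no count in EV, Efna1 fell from a spread-out EV group, and Epha2 and Ephb4 rose to similar levels.

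Among the ephrin-A ligands, Efna4 went from no count to a clear signal. The EV libraries were all at 0 for this gene, where 3 counts would be up to 0.231 CPM, while Sox4 1 to 3 held 345, 303 and 231 counts, or 17.3, 15.5 and 11.7 CPM. All Sox4 libraries were thus above all EV libraries, and the mean of 14.8 ± 2.85 CPM (SD, n = 3) was at least 65.7-fold higher than EV. Its fitted log2 fold change ranked 4 among all genes tested. That fitted value rests on the absence of EV counts and is no measure of size, so the bound is used here. A gene annotated on the opposite strand and overlapping Efna4, 4731419I09Rik, had at most 4 counts in a library.

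Efna5, an ephrin-A best known from axon guidance, was also higher. Its level was 2.77, 3.72 and 2.83 CPM in EV 1 to 3 and 6.11, 9.79 and 9.36 CPM in Sox4 1 to 3. The lowest Sox4 library lay above the highest EV library, with a log2 fold change of 1.44 (SE 0.25), and leaving out a library gave 1.32 to 1.62.

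Efna1, the ephrin that adult hepatocytes expressed most and a well-known ligand of Epha2, moved the other way. Its level was 122, 56.5 and 43.7 CPM in EV 1 to 3 and 28.8, 22.3 and 14.1 CPM in Sox4 1 to 3. The groups did not overlap, but EV 1 stood far above the other EV libraries, so that the EV mean of 74.0 ± 42.0 CPM (SD, n = 3) had a wide spread. The log2 fold change was -1.77 (SE 0.54) with all libraries and -1.22 without EV replicate 1. The gene no longer passed the threshold when any 1 of the Sox4 libraries was left out, at -2.03, -1.78 and -1.53 without replicates 1 to 3, or with no filter on low counts, at -1.72.

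Efna3 was lower as well, from a much smaller level. EV 1 to 3 held 15, 14 and 23 counts and Sox4 1 to 3 held 6, 1 and 3, or 1.29 ± 0.327 against 0.168 ± 0.125 CPM (SD, n = 3). No Sox4 library reached the lowest EV library, and the log2 fold change was -2.89 (SE 0.42), with -3.58 without Sox4 replicate 1 and -2.47 without Sox4 replicate 2. Gm15998, which overlaps Efna3 on the opposite strand, fell too. It had 45, 28 and 58 counts in EV and 1, 6 and 0 in Sox4, a log2 fold change of -4.70 (SE 0.61, edgeR adjusted p = 0.000395). The strand setting of the counting was not given in the sources used here, so the reads of this antisense transcript and those of Efna3 cannot be told apart.

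Efna2 could not be compared at this depth. EV 1 to 3 held 2, 0 and 2 counts and Sox4 1 to 3 held 1, 0 and 5, at the floor in every library but the last.

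Levels of different genes were set side by side per kilobase of transcript, as CPM divided by the mean length of the coding transcripts in GENCODE M21. Efna1 made up 97.6%, 94.3% and 92.5% of the summed ephrin-A level in EV 1 to 3, but 58.4%, 51.6% and 44.9% in Sox4 1 to 3. Efna4 took 33.0%, 33.7% and 35.0% of the sum in Sox4 1 to 3, and nothing was detected of it in EV. The share of Efna5 was 3.1 ± 1.4% in EV and 13.9 ± 5.6% in Sox4 (SD, n = 3), and that of Efna3 was 2.0 ± 1.3% in EV and 0.4 ± 0.2% in Sox4. The sum itself was 83.0, 39.8 and 31.4 CPM per kilobase in EV and 32.8, 28.7 and 20.9 in Sox4, so that the groups overlapped. The Sox4 preparations thus held a mixed set of ephrin-A mRNAs where the EV preparations held chiefly Efna1. The part of other liver cells in these shares was not tested. These shares depended on the length used, and with the longest transcript Efna4 had 37.7% and Efna5 9.0% in Sox4.

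**Figure D2:**
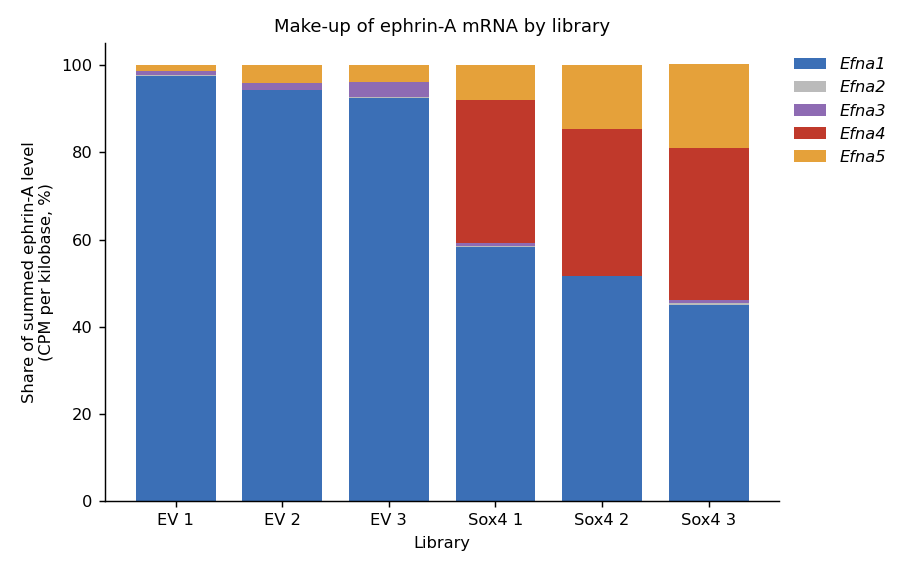
Share of each ephrin-A gene in the summed ephrin-A level (CPM per kilobase, percent, vertical axis) in each of the 6 libraries (horizontal axis). Efna1 filled more than 92% of every EV library, whereas Efna1 and Efna4 together filled most of every Sox4 library.

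The ephrin-B ligands differed less between the groups. Efnb1, which acts at tissue boundaries, had 17.1, 13.2 and 9.72 CPM in EV 1 to 3 and 22.5, 19.1 and 16.1 CPM in Sox4 1 to 3. EV 1 lay above Sox4 3, so the groups overlapped, and the log2 fold change of 0.53 (SE 0.27) did not pass the threshold. It passed with library size alone (1.0), with no filter (0.57), with a mean count of at least 50 (0.56), without EV replicate 1 (0.73), without Sox4 replicate 3 (0.65) and with the replicate number as a block (0.55). In both groups the libraries stood in the same order for Efnb1 as for Efna1, with replicate 1 highest and replicate 3 lowest.

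Efnb2, the arterial partner of Ephb4, was scarce. EV 1 to 3 held 7, 11 and 5 counts and Sox4 1 to 3 held 29, 18 and 34, or 0.578 ± 0.238 and 1.36 ± 0.408 CPM (SD, n = 3). The nearest libraries of the groups were close, at 0.834 CPM in EV 2 and 0.918 CPM in Sox4 2. The log2 fold change of 1.23 (SE 0.38) did not pass with DESeq2 (1.24), with no filter (1.27), with the replicate block (1.22), or when 1 library was omitted, namely EV replicate 1 (1.17) or 3 (0.96) or Sox4 replicate 1 (1.18) or 3 (1.03).

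Of the EphA receptors, Epha2 was higher in Sox4, while Epha1 lay at overlapping levels. Epha2, an epithelial receptor that binds Efna1, had 26.9, 20 and 26.3 CPM in EV 1 to 3 and 58.7, 67.1 and 68.4 CPM in Sox4 1 to 3. Every Sox4 library held more than 2 times the level of any EV library, with a log2 fold change of 1.41 (SE 0.15), and omitting single libraries gave 1.27 to 1.47. Epha1, the first Eph receptor to be described, had 34.4, 38.1 and 34.0 CPM in EV and 30.7, 30.3 and 37.6 CPM in Sox4. These values overlapped, with a log2 fold change of -0.11 (SE 0.11), which turned to 0.36 and passed the threshold with library size alone, so Epha1 had no fixed direction. Zyx, which overlaps Epha1 on the opposite strand, had 39.6 ± 5.64 CPM in EV and 27.4 ± 2.16 CPM in Sox4 (SD, n = 3).

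Ephb4, the venous EphB receptor and partner of Efnb2, was also higher, with the same log2 fold change as Epha2. It had 24.9, 26.3 and 22.0 CPM in EV 1 to 3 and 73.1, 67.4 and 54.1 CPM in Sox4 1 to 3. The lowest Sox4 library held more than 2 times the level of the highest EV library, and the log2 fold change was 1.41 (SE 0.15), between 1.31 and 1.53 when a library was left out. Endothelial cells also use Ephb4 and Efnb2. Among 14 endothelial markers 13 were tested, with 3 higher (Kdr, Stab1 and Clec4g) and 1 lower (Stab2), beside 29.0% and 26.0% of all genes tested. The median log2 fold change of these markers was 0.43 against 0.04 over all genes tested. Their summed level was 31.8 to 53.4 CPM in EV against 33.3 to 73.6 CPM in Sox4, ranges that overlapped, and none of the 14 was at 0 in all libraries. The part of endothelial RNA in the Ephb4 and Efnb2 values was not tested.

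**Figure D3:**
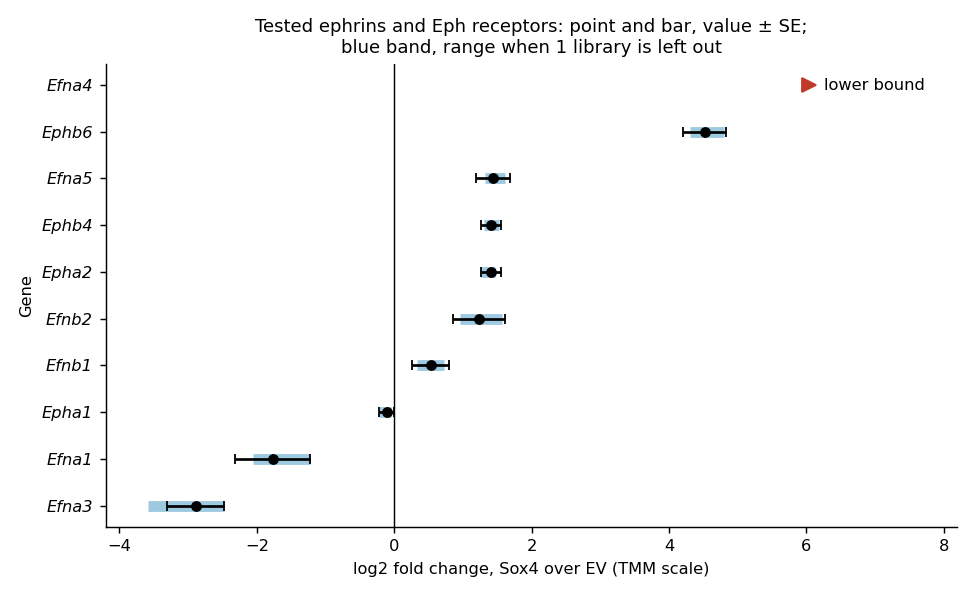
Log2 fold change of Sox4 over EV on the TMM scale (horizontal axis) for the 9 tested genes of the list and Ephb6 (vertical axis). Points with whiskers give the value ± SE, blue bands the range when 1 library is left out, and the triangle for Efna4 the log2 of its lower bound, 6.04. The SE comes from log2 CPM and not from the fit. Efna3 and Efna1 lie left of 0, Epha1 at 0, and the others to the right.

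The other 12 genes of the families were searched for members outside the list. Ephb6, an Eph receptor whose kinase domain is inactive, was the only one to pass the filter, and it was higher in Sox4. EV 1 to 3 held 3, 5 and 3 counts and Sox4 1 to 3 held 132, 88 and 166, or 6.61, 4.49 and 8.40 CPM in Sox4. All Sox4 libraries stood far above all EV libraries, with a log2 fold change of 4.52 (SE 0.31, edgeR quasi-likelihood test, adjusted p = 1.56e-05). It kept that direction and passed under each of the 12 alternatives run. Its EV counts lay under the minimum count of 10, so it passed the filter only through the Sox4 libraries. A gene that enters in this way can hardly be called lower, so the direction of Ephb6 was largely set by the filter. Epha5, Epha6, Epha8 and Epha10 had no count in any library, which allows up to 0.231 CPM in each. Efnb3, Epha7, Ephb1 and Ephb2 had at most 3 counts in any library. Epha3 had no count in EV and 0, 4 and 8 in Sox4 1 to 3, Epha4 at most 1 count in EV and 0, 3 and 9 in Sox4 1 to 3, and Ephb3 no count in EV and 0, 4 and 2 in Sox4 1 to 3. None of these 11 genes passed the filter, and changes in them were not detectable at this depth.

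Per kilobase, the order of the family differed between the groups. In EV hepatocytes Efna1 led with 49.2 ± 27.9 CPM per kilobase (SD, n = 3), above Epha1 with 11.4 ± 0.719, and the libraries of these genes did not overlap. Epha2 (6.24 ± 0.972) and Ephb4 (6.05 ± 0.539) followed with overlapping libraries, and Efnb1 (4.09 ± 1.13) overlapped Epha2. Efna5 (1.33 ± 0.227), Efna3 (0.834 ± 0.210) and Efnb2 (0.212 ± 0.0875) came after these, with libraries apart from each other, and Efnb2 overlapped Ephb6, the next in order.

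In Sox4 hepatocytes the receptors Epha2 (16.5 ± 1.34 CPM per kilobase, SD, n = 3) and Ephb4 (16.1 ± 2.41) came first, but Efna1 (14.4 ± 4.88) overlapped both. Epha1 (10.6 ± 1.31) overlapped Efna1 and Efna4 (9.26 ± 1.78), and Efnb1 (5.91 ± 0.972) lay below all of these. Efna5 (3.60 ± 0.862) and Ephb6 (3.08 ± 0.928) overlapped each other. Summed by class over all 22 genes, EphA mRNA was 17.9, 17.4 and 17.7 CPM per kilobase in EV 1 to 3 and 24.9, 27.0 and 29.9 in Sox4 1 to 3. EphB mRNA was 6.28, 6.69 and 5.56 in EV and 21.2, 18.9 and 17.4 in Sox4. The sum of ephrin-A over that of EphA was 4.63, 2.29 and 1.77 in EV and 1.32, 1.06 and 0.701 in Sox4, so that the balance of class A lay further toward the receptors in every Sox4 library.

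The cluster on chromosome 3 was then placed among its neighbors. By RefSeq the protein-coding genes run in the order Muc1, Trim46, Krtcap2, Dpm3, Slc50a1, Efna1, Efna3, Efna4, Adam15, Dcst1, Dcst2, Zbtb7b and Lenep. Of the 10 neighbors 5 were tested, with 1 higher and 2 lower, beside 29.0% and 26.0% of all genes tested. Adam15, a membrane protease next to Efna4, was higher, with 3, 1 and 4 counts in EV 1 to 3 and 40, 39 and 38 in Sox4 1 to 3 (log2 fold change 3.25, SE 0.32, edgeR adjusted p = 0.000364). On the other side of the cluster, Krtcap2, a subunit of the enzyme that adds sugar chains to proteins, was lower, from 43.4 ± 3.67 to 21.6 ± 2.22 CPM (SD, n = 3; -1.0, SE 0.11, edgeR adjusted p = 0.000125). Dpm3, which takes part in dolichol-linked sugar synthesis, was lower at -0.86 (SE 0.36, edgeR adjusted p = 0.0263). It did not pass with library size alone (-0.39), without EV replicate 2 (-0.71), or without Sox4 replicate 2 (-0.88) or 3 (-0.60).

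Slc50a1, a sugar transporter beside Efna1, stood at 0.03 (SE 0.14, edgeR adjusted p = 0.895) and the regulator Zbtb7b at -0.26 (SE 0.24, edgeR adjusted p = 0.268). Slc50a1 passed as higher with library size alone (0.50), and Zbtb7b passed as lower without Sox4 replicate 1 (-0.47) and lay at 0.21 with library size alone. Muc1, Trim46, Dcst1, Dcst2 and Lenep did not pass the filter. Within the stretch, Efna4 and Adam15 were higher, and Efna1, Efna3, Krtcap2 and Dpm3 lower. The changed neighbors stand beside 55.1% of all genes tested, a similar share, so nothing is read from their number.

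**Figure D4:**
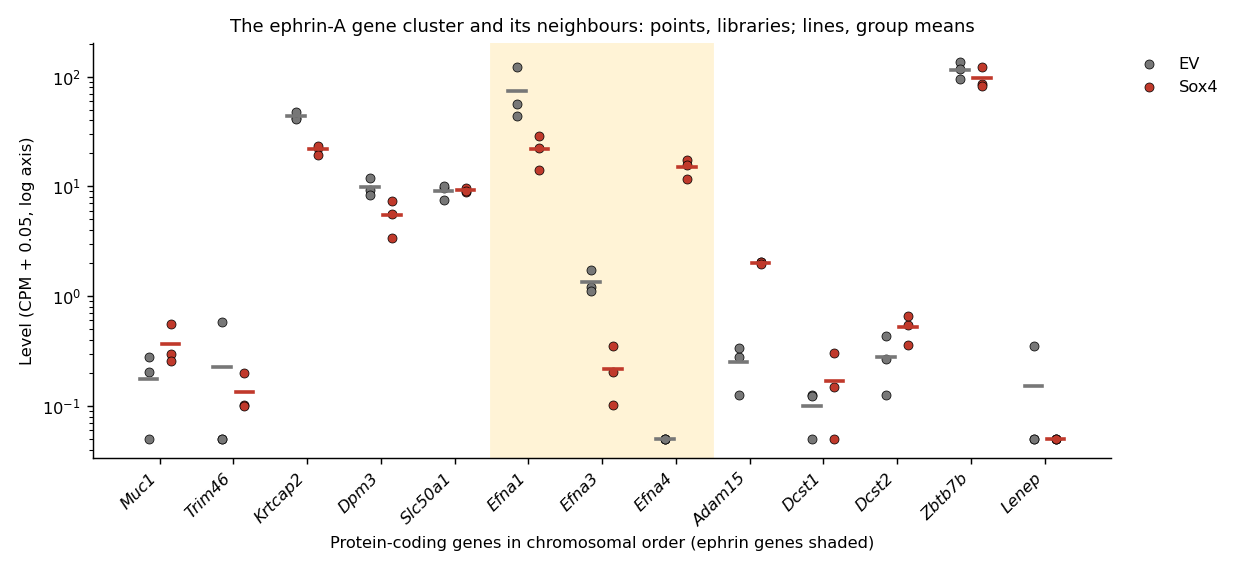
Level of 13 protein-coding genes (CPM + 0.05, log axis, vertical) in their order along chromosome 3 (horizontal axis, ephrin genes shaded) in EV (grey) and Sox4 (red). Points are libraries and lines group means. Efna1 and Efna3 are lower in Sox4, while Efna4 and Adam15 are higher.

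Partners of the pathway were examined as lists. Of 27 genes that act behind Eph receptors, 24 were tested, and 8 were higher and 8 lower, where 29.0% of all genes tested were higher and 26.0% lower. The median log2 fold change was 0.00 against 0.04 over all genes tested, so the list lay near the background. Tiam1, an exchange factor for Rac, had 1, 3 and 2 counts in the libraries EV 1 to 3 and 64, 59 and 45 in Sox4 1 to 3, at least 12.6-fold more (edgeR adjusted p = 6.99e-05). Tiam1 passed the filter only through the Sox4 libraries. The ubiquitin ligases Cblb (1.90, SE 0.45) and Cbl (1.11, SE 0.17), which mark receptor tyrosine kinases for removal, also rose on the log2 scale (edgeR adjusted p = 0.00114 and 0.000406). The adaptors Sh2d3c (-1.59, SE 0.34) and Grb7 (-1.06, SE 0.24) fell (edgeR adjusted p = 0.00171 and 0.000968). Grb10, an adaptor, lay at 2.62 (SE 1.13) but did not pass (edgeR adjusted p = 0.0748), and its 211 counts in Sox4 3 stood apart from 33 and 29 in Sox4 1 and 2.

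The GTPases Rhoa, at -0.31 (SE 0.06), and Rac1, at -0.38 (SE 0.06), were among the lower genes, by less than the shift between the scales (edgeR adjusted p = 0.0316 and 0.0118). With library size alone 16 of the list were higher and 2 lower, and without EV replicate 2 there were 5 of each.

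Of 15 genes that act behind ephrins 14 were tested, with 6 higher and 2 lower, beside 29.0% and 26.0% of all genes tested, and a median log2 fold change of 0.34 against 0.04. The 8 changed genes stand beside 55.1% of all genes tested, a similar share. Nck2, an adaptor that binds phosphorylated ephrin-B, rose from 1.03 ± 0.369 to 29.0 ± 3.37 CPM (SD, n = 3; log2 fold change 4.81, SE 0.28, edgeR adjusted p = 5.67e-07). Its close relative Nck1, in the receptor list, was at 0.17 (SE 0.13, edgeR adjusted p = 0.339). The tyrosine kinases Src, which phosphorylates ephrin-B, and Fyn, which signals with ephrin-A, rose by 3.34 (SE 0.23) and 3.71 (SE 0.69) on the log2 scale (edgeR adjusted p = 2.48e-06 and 0.000258). Fyn had 2, 3 and 16 counts in EV 1 to 3, and the estimate ranged from 3.27 (without EV replicate 1) to 5.11 (without EV replicate 3). Their relatives differed, with Lyn lower (-0.86, SE 0.11, edgeR adjusted p = 0.000476) and Yes1 at 0.07 (SE 0.18, edgeR adjusted p = 0.704). The PDZ protein Grip1, which binds the tail of ephrin-B, was at least 18.6-fold higher (edgeR adjusted p = 0.000242), and Pdzrn3 fell by 1.25 on the log2 scale (SE 0.37, edgeR adjusted p = 0.00816), but did not pass with library size alone (-0.78). With library size alone 10 of the list were higher and 1 lower.

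A protease list held 13 genes for membrane or matrix proteases and subunits of gamma-secretase, among them Ncstn, a subunit that is not itself a protease. Not all are established to cut ephrins or their receptors. Of these 9 were tested, with 5 higher (Ncstn among them) and 2 lower, beside 29.0% and 26.0% of all genes tested. Adam15 and Adam19, counted as higher, passed the filter only through the Sox4 libraries, so their direction was largely set by the filter. The median log2 fold change was 0.72 against 0.04. Adam10, which cuts ephrins that are bound to Eph receptors, rose from 30.9 ± 2.14 to 76.9 ± 5.84 CPM (SD, n = 3; 1.31, SE 0.09, edgeR adjusted p = 1.20e-05). Mmp14, a membrane metalloprotease that cuts Epha2, rose from 38 ± 5 to 268 ± 27.9 CPM (2.82, SE 0.14, n = 3, edgeR adjusted p = 8.16e-07). Adam19 was at least 4.26-fold higher (edgeR adjusted p = 0.00207) from 2 counts in each EV library, and Adam15 is given above. Psen2, a catalytic subunit of gamma-secretase, fell from 273 ± 61.5 to 76.9 ± 23.0 CPM (-1.83, SE 0.31, n = 3, edgeR adjusted p = 0.000239). With a mean count of at least 50, fewer genes were tested and 3 genes of the protease list were higher, and with library size alone 1 was lower.

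**Figure D5:**
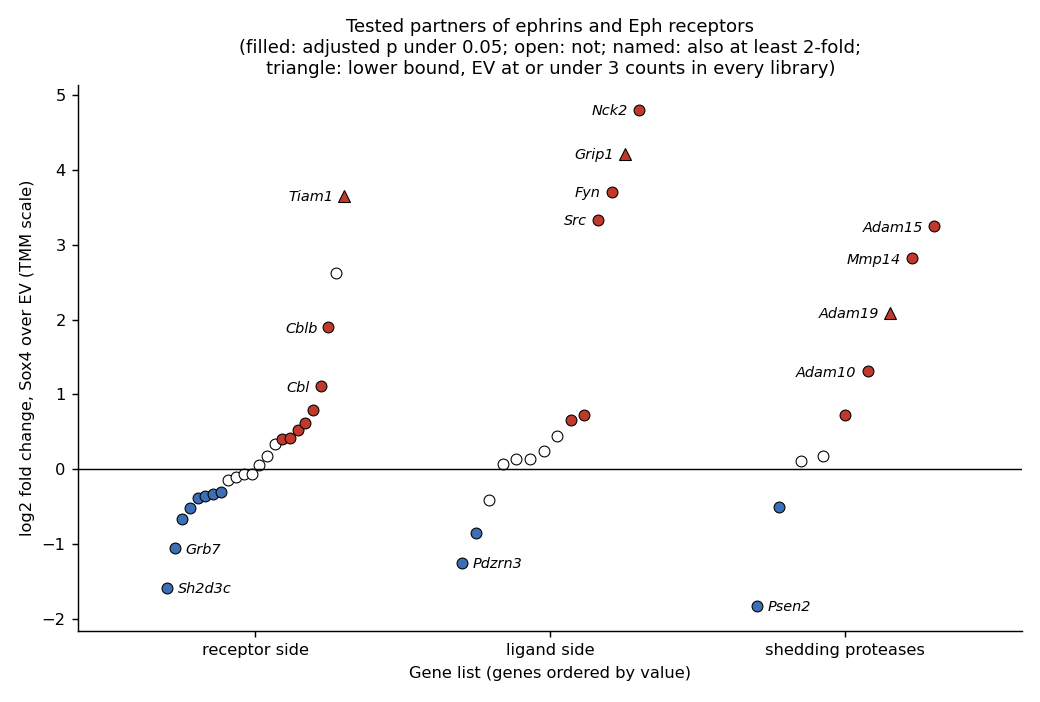
Log2 fold change of Sox4 over EV on the TMM scale (vertical axis) for the tested genes of the receptor-side, ligand-side and protease lists (horizontal axis, ordered by value). Filled points passed an adjusted p of 0.05, open points did not, and triangles are lower bounds for genes at or under 3 counts in every EV library. Nck2 at 4.81 is the highest point and Psen2 at -1.83 the lowest.

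Markers of cholangiocytes and of other liver cells moved with the groups to different degrees. The study reports that Sox4 brought on biliary markers, such as CD24 and EPCAM, in hepatocytes marked by EGFP. Cholangiocyte markers are therefore not markers of other cells alone. Counts of changed markers stand beside 29.0% higher and 26.0% lower among all genes tested. Of 12 cholangiocyte markers 6 were tested, with 4 higher and 0 lower. Their summed level was 110 to 125 CPM in EV against 300 to 427 CPM in Sox4, of which Tm4sf4 had 78.2 and 264 CPM on average. Spp1 (5.23 and 38.7 CPM on average) and Epcam (0.147 and 2.59 CPM) were among the higher ones. The defining markers Krt7 and Krt19 had no count in EV and at most 7 and 9 in a Sox4 library. Of 12 stellate markers 6 were tested and 5 were higher, with a summed level of 10.9 to 50.9 CPM in EV against 100 to 153 CPM in Sox4, with Reln as the largest part (22.4 and 98 CPM on average). Of 10 Kupffer markers 9 were tested and 4 were higher, and their summed level of 13.4 to 28.8 CPM in EV compared with 29.1 to 67.8 CPM in the Sox4 libraries. Of 8 lymphoid and neutrophil markers only Ptprc was tested and it did not pass, with summed levels of at most 2.43 CPM in EV and 4.49 CPM in Sox4. The erythroid gene Slc4a1 had no count in any library, while Alas2, an enzyme of heme synthesis, fell, from 108 to 9.89 CPM on average, and made up nearly all of the summed level of the 5 erythroid markers, which was 92.9 to 126 CPM in EV against 4.96 to 15.5 CPM in Sox4. The globin genes Hba-a1 (0.150 and 0.389 CPM on average) and Hbb-bs (0.198 and 0.743 CPM) did not pass the filter and lay above EV in every Sox4 library. Of the 10 hepatocyte markers 6 were lower and none higher. The part of these cells in the ephrin and Eph values was not tested.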

How the data were processed

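Hepatocyte RNA of 3 EV and 3 Sox4 mice was sequenced, with groups as labelled. Alignment by the authors used STAR and GRCm39, and reads were counted per gene with featureCounts, and the submitters' processing notes give versions 2.7.10b and 2.0.1. The deposited values used here are raw counts per gene. A deposited table of the same counts divided by DESeq2 size factors was not used. The annotation release, strand setting and handling of multi-mapping reads were not given in the sources used here.

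Genes were kept with edgeR 4.0.16 (R 4.3.3) by filterByExpr (minimum count 10, minimum total 15), scaled by TMM and tested by the robust quasi-likelihood method, with Benjamini-Hochberg adjustment of the p-values across 12691 genes. A gene under that minimum count in every library of 1 group passed only through the other group, so its direction was largely set by the filter. Among such genes were Efna4, Ephb6, Tiam1, Grip1, Adam15, Adam19 and Epcam, low in EV, and Efna3, low in Sox4. The SE given beside a log2 fold change was computed from the spread of log2 CPM (prior count 2), whereas the fold change came from the edgeR fit. It is thus not the error of the fitted value, and the prior count can make it too small for genes with few counts. If no library of a group exceeded 3 counts, the fold change is a bound, against the mean floor of 3 counts per library of that group. Lengths, strands and overlaps came from GENCODE M21, gene order and upstream windows from RefSeq, both on GRCm38, so no coordinates are given for counts. All 10 genes matched an upstream window. Alternatives were DESeq2 1.42.0, its size factors, library size alone, no filter, a mean count of at least 50, the replicate block and leaving out each library.

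All genes of the families are named, with those of the partner lists that passed the threshold and changed at least 2-fold (at most 8 per list) and all neighbors of the cluster. Others (Rhoa, Rac1, Nck1, Lyn, Yes1, Grb10, the overlapping genes and single markers) were named after their values were seen. The genes and lists were chosen with earlier results of these data known. Within groups, chi-square per degree of freedom between libraries was 19.3 to 69.8, so no library was a copy of another within counting noise.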

Additional observations from a re-analysis of the deposited data

How the results depend on the processing

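Over the alternatives between 5937 and 8094 genes changed, against 6990. For 30 single genes, 354 values were recomputed, of which 326 led to the same call in the same direction, 16 no longer passed, 8 newly passed and 4 turned direction. With library size alone, which raises the median of all genes to 0.51, the higher and lower genes numbered 16 and 2 for receptor-side partners (8 and 8 with TMM), ligand-side partners numbered 10 higher and 1 lower, 1 protease was lower, 2 neighbors of the cluster were higher and 1 lower, Epha1 was at 0.36 and Zbtb7b at 0.21. With no filter 1 gene of the ephrin and Eph list was lower and 5 receptor-side partners were lower. With a mean count of at least 50 fewer genes were tested, and 1 gene of the ephrin and Eph list was lower. In the protease list 3 genes were higher, and 0 neighbors were higher, since Adam15 was no longer tested. Leaving out each library in turn gave 1 to 2 lower genes of the list, 5 to 8 higher and 5 to 7 lower receptor-side partners, 1 to 3 lower neighbors, and -0.11 to 0.10 for Slc50a1 (0.00 without Sox4 replicate 2). Apart from library size and the tested genes, the cause was not tested. The share of Efna4 in the ephrin-A sum in Sox4, 33.9%, was 37.7% with the longest transcript and 39.9% with the union of exons, a length chosen after the data were seen.

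With the replicate block 7362 genes changed. Deviations of same-numbered libraries from their group means correlated at 0.27, -0.09 and 0.13 across genes. Replicate 2 did not correlate best with its own number, and EV 3 correlated more with Sox4 2 (0.18) than with Sox4 3. The labels give no pairing, and these 3 values cannot decide whether same-numbered libraries share more than a number. Under the block Efnb1 passed the threshold (0.55) and Efnb2 did not (1.22), and 10 receptor-side partners were higher. Efna1 passed with the block (-1.69) as it did without it. Genes at or under 3 counts in every EV library could be bounded but not measured at this depth.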
